A study of Mus musculus with 6 samples.

Results

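PIWI proteins and piRNA biogenesis factors, 10 of the 25239 genes in the deposited count table, were followed in ovaries of C57BL/6 mice at E18.5, late in gestation. They were chosen by name as the PIWI proteins Piwil2 and Piwil4 and the processing factors without a Tudor domain, namely Mov10l1, Mael, Asz1, Pld6, Fkbp6, Gpat2, Gtsf1 and Henmt1, and all 10 were found in the table. RNA was sequenced from 3 ovary libraries labelled WT and 3 labelled Hnrnpl-null. The titles of the latter carry the abbreviation CKO without naming a Cre driver or the exons removed. The name of the deposited count table also holds the term stra8, which no label explains. Hnrnpl encodes an RNA-binding protein that regulates splicing. The series asks how its loss affects germ cells and the primordial follicle pool. Oocyte is the labelled cell type, but the libraries were made from dissociated ovaries and held somatic transcripts as well. The pregranulosa markers, among them Wt1 and Foxl2, summed to 823 to 880 CPM (counts scaled to library size) in WT. No label says that the libraries came from separate animals, so the p-values measure the spread between libraries, which may be technical.

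The piRNA pathway protects the germ line from transposons. Long precursor RNAs are cut at the mitochondrial surface and in germ granules, loaded into PIWI proteins, and used to recognise and silence transposon transcripts. The pathway is best known from the male germ line of mice, where loss of many of these factors derepresses transposons and stops spermatogenesis. It is also present in mouse oocytes, which at this age are in late meiotic prophase within cysts that are breaking into primordial follicles.

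Total counts were 8949781 to 22401419 per library. WT replicate 1 and Hnrnpl-null replicate 3 were dominated by Rn45s, the 45S pre-ribosomal RNA, with shares of 83.0% and 86.1%, where the other 4 libraries had 18.6% to 36.0%. These 2 libraries held the fewest counts for all other genes (3818414 and 1757572). In each library, 93.4% to 98.4% of the counts from 1 to 20 were even, and 2 counts are therefore read here as 1 read pair. Hnrnpl itself was at 113% of WT in the libraries labelled Hnrnpl-null, with a 95% interval of 93.6% to 137%, and was not called (edgeR adjusted p = 0.50). That count covers all exons and all cells and does not check the labels.

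All 10 genes had a lower fitted level in the libraries labelled Hnrnpl-null, and 6 of them fell at an edgeR adjusted p below 0.05 over all genes tested. Those 6 were Piwil2, Mov10l1, Mael, Fkbp6, Gpat2 and Gtsf1, and 0 rose. Gtsf1 passed the filter on low counts only through its WT libraries, so its call is a description and supports nothing, and 5 calls remain without it. Among all 14849 genes tested, 1.79% fell at this threshold (266 genes) and 2.67% rose (397 genes), 4.46% in either direction. The 10 genes were chosen with earlier results of these data known, so these shares are a background and not a test. A log2 fold change of -1 or less was found for 7 of the 10, and for 4.68% of all tested genes. Gtsf1 and Piwil4, both with few counts, are among the 7. The WT and Hnrnpl-null libraries did not overlap for 9 of the 10, with Asz1 the exception, where 13.2% of all tested genes had groups that did not overlap in this direction. The 9 include Gtsf1 and Piwil4 too. The median log2 fold change of the 10 was -1.25, against -0.01 over all tested genes. A filter of at least 20 counts in 3 libraries leaves out Gtsf1 and Piwil4. The median of the 8 genes it kept was -1.23, against -0.006 over all genes tested with it. Summed over the 10 genes, the level per length was 105 to 107 RPKM (CPM per kilobase of exon) in the WT libraries and 45.0 to 51.0 RPKM in the Hnrnpl-null libraries. In whole ovary, fewer germ cells and less RNA per germ cell cannot be told apart.

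**Figure D1:**
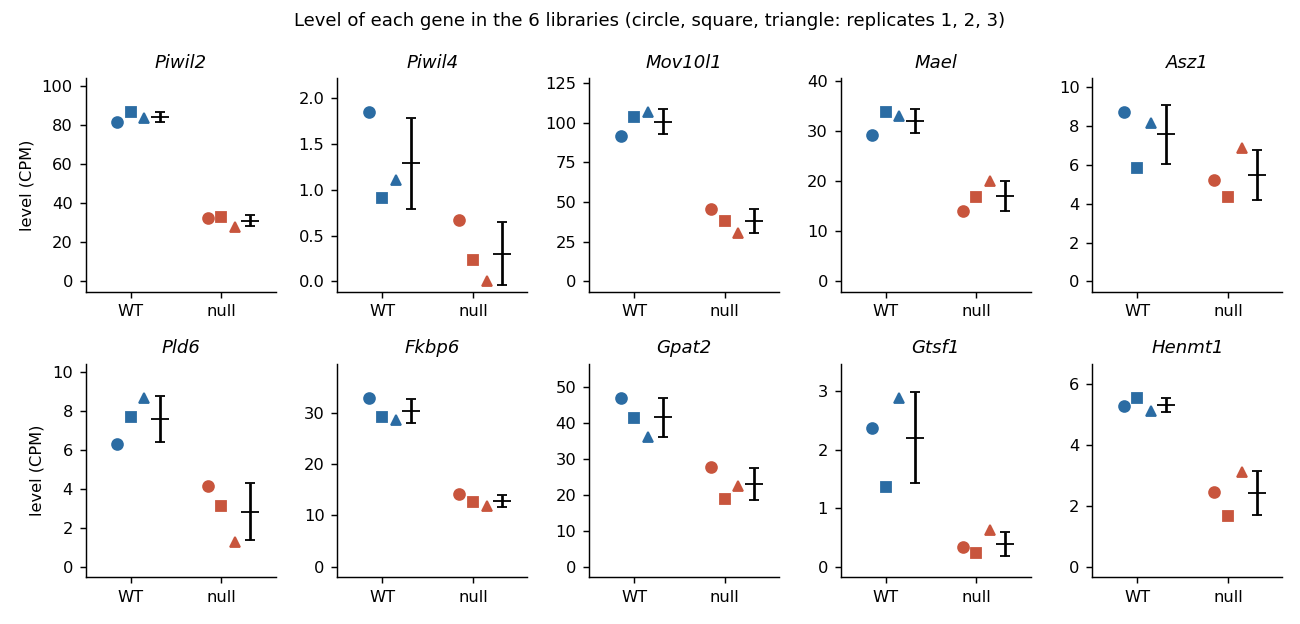
Level (CPM, linear axes that differ between panels) of the 10 genes in each of 6 libraries, with circles, squares and triangles for replicates 1, 2 and 3 and a bar for the mean and SD of 3 libraries. WT points (blue) lie above all Hnrnpl-null points (red) in every panel but that of Asz1, where WT replicate 2 (5.85 CPM) lies below Hnrnpl-null replicate 3 (6.87 CPM).

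The promoters of the genes are shown because all fitted changes had 1 direction and the stretches before their starts can be compared. RefSeq promoter windows of GRCm38.p6 were found for 9 of the 10 genes, 12 windows in all since Piwil4, Pld6 and Fkbp6 each have 2 annotated starts, and Piwil2 was not matched. The 250 bases before a start were searched on both strands for CACGTG, the E-box bound by MAX and MGA, which repress germ cell genes in mouse embryonic stem cells, for TCCCGC, an E2F element, and for GCGCATGC, the core of the site of NRF1. Windows of 4 genes held CACGTG, and these are given below with the window of Gpat2, which held GCGCATGC on both strands in overlapping copies. Each line reads 5′ to 3′ in the direction of the gene, with matches to the 3 motifs in capitals.
Mov10l1, chr15:88982744-88982993, plus strand: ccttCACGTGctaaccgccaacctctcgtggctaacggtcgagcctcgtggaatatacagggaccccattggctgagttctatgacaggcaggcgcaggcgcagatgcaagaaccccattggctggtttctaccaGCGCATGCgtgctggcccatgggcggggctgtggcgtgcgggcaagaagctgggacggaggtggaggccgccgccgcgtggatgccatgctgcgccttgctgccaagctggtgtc
Mael, chr1:166238745-166238994, minus strand: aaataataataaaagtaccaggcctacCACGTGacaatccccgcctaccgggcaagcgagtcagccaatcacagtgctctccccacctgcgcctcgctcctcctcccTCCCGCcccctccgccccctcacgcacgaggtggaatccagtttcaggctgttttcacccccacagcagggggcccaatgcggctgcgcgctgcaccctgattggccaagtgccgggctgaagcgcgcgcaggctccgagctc
Fkbp6, chr5:135350045-135350294, minus strand: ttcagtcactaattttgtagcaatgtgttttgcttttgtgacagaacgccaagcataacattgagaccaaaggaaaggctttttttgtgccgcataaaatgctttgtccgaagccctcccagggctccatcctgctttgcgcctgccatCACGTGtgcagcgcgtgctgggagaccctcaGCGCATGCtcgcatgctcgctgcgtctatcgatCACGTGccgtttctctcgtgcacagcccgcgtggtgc
Pld6, chr11:59787658-59787907, minus strand: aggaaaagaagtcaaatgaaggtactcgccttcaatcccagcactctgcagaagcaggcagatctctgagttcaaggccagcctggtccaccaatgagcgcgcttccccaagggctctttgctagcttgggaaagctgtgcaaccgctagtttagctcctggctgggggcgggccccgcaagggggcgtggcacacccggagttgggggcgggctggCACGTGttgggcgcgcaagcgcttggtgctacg
Gpat2, chr2:127424949-127425198, plus strand: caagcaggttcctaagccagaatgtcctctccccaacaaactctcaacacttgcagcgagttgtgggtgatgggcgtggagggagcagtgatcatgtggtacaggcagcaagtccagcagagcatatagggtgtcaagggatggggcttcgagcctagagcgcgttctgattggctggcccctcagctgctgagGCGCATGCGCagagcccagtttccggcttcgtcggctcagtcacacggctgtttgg

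CACGTG stood in 5 of the 12 windows, and in 6.02% of all 32851 RefSeq windows of this length. The first base of the E-box lay 37 and 101 bases before the start in Fkbp6, 33 bases before it in Pld6, 223 in Mael and 246 in Mov10l1. The 2 Fkbp6 windows overlap and share both E-boxes, so they are not separate observations. GCGCATGC stood in 4 windows, of Mov10l1, Gpat2 and both of Fkbp6, against 2.26% of all windows. TCCCGC stood in 1 window, that of Mael, against 16.9% of all. CAGTT, a core of MYB sites, stood in windows of 4 genes (39.1% of all windows), and TAATTG, an element bound by NOBOX, in 0 (7.17% of all). The windows held a median of 16 CpG dinucleotides, with a range of 0 to 30, against a median of 6 in all windows. CACGTG, GCGCATGC and TCCCGC each hold a CpG, and the shares over all windows were not matched for CpG content. Of the 4 genes with CACGTG, 3 were called lower and Pld6 was not (edgeR adjusted p = 0.050). Of the 5 without it Gpat2 was called lower, and so was Gtsf1, whose call supports nothing. Henmt1, Asz1 and Piwil4 were not called. The fitted log2 fold change of Henmt1 (-1.24) was nevertheless larger in size than that of Mael (-0.95), which has CACGTG. Calls depend on the number of counts as well as on the size of a change, so this split says nothing on the motif. A match is a string of letters and not a shown binding site, and the motifs were picked after the windows had been read.

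Of the PIWI proteins, which carry the piRNA and cut or silence its target, Piwil2 had the most precise fall of the 10 genes and Piwil4 was too rare to judge. Piwil2 (chromosome 14, 70372477 to 70436898, mm10, minus strand) encodes MILI, the cytoplasmic PIWI protein of germ granules. In replicate order, the WT libraries held 81.5, 86.6 and 83.7 CPM, and the Hnrnpl-null libraries held 32.6, 32.7 and 27.8 CPM. The groups lay far apart, and the SD was 2.52 CPM among WT libraries and 2.80 CPM among Hnrnpl-null libraries. Piwil2 fell to 37.4% of WT (95% interval 31.4% to 44.5%), or -1.42 ± 0.12 on the log2 scale (SE; edgeR adjusted p = 7.9e-06). Leaving out any 1 library moved it only between -1.46 and -1.36, with an adjusted p of 2.2e-04 at most.

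Piwil4 (chromosome 9, 14701776 to 14740672, minus strand) encodes MIWI2, the nuclear PIWI protein that directs DNA methylation of transposons in fetal male germ cells. It had 14, 22 and 16 counts in the WT libraries and 16, 6 and 0 counts in the Hnrnpl-null libraries. These correspond to 1.84, 0.912 and 1.10 CPM and to 0.675, 0.228 and 0 CPM. The count of 0 in Hnrnpl-null replicate 3 allows up to 1.87 CPM (3 read pairs, or 6 counts, counting error only), which lies above every WT value, so that library carries no information on Piwil4. The fitted level was 31.3% of WT with an interval of 9.57% to 103% (edgeR adjusted p = 0.28), and a difference was not detectable at this depth.

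Mov10l1 and Fkbp6, which act in precursor selection and in PIWI loading, had falls close to that of Piwil2. Mov10l1 (chromosome 15, 88982994 to 89055152, plus strand) encodes the RNA helicase that binds piRNA precursors and feeds them into processing. Mov10l1 measured 91.7, 103 and 107 CPM across WT libraries against 45.6, 37.9 and 30.6 CPM across Hnrnpl-null libraries. The highest Hnrnpl-null library was below all WT libraries by a wide margin, and Hnrnpl-null replicate 3 was the lowest. Mov10l1 fell to 38.4% of WT (31.1% to 47.4%), or -1.38 ± 0.14 on the log2 scale (edgeR adjusted p = 6.1e-05). Fkbp6 (chromosome 5, 135291704 to 135350044, minus strand) encodes an immunophilin that works with the chaperone HSP90 when PIWI proteins take up piRNAs. Fkbp6 measured 32.9, 29.1 and 28.7 CPM across WT libraries against 14.1, 12.6 and 11.9 CPM across Hnrnpl-null libraries. These values were tight within both groups. Fkbp6 fell to 43.1% of WT (34.4% to 54.0%), or -1.21 ± 0.15 on the log2 scale (edgeR adjusted p = 3.8e-04).

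The 3 proteins of the mitochondrial outer membrane, where precursors are cut, differed in how clearly they separated the groups. Gpat2 (chromosome 2, 127425199 to 127436092, plus strand) encodes a relative of the glycerol-phosphate acyltransferases that is needed for primary piRNAs in mice. Gpat2 measured 47.0, 41.5 and 36.2 CPM across WT libraries against 27.8, 18.8 and 22.5 CPM across Hnrnpl-null libraries. The groups did not overlap, and the highest Hnrnpl-null library was replicate 1. Gpat2 fell to 55.6% of WT (43.5% to 71.2%), or -0.85 ± 0.17 on the log2 scale (edgeR adjusted p = 0.011), and this call was lost without WT replicate 2 (adjusted p = 0.054) or Hnrnpl-null replicate 2 (adjusted p = 0.071).

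Pld6 (chromosome 11, 59783893 to 59787657, minus strand) encodes MitoPLD, the nuclease held to form the ends of piRNA precursors. Pld6 measured 6.32, 7.71 and 8.68 CPM across WT libraries against 4.13, 3.12 and 1.25 CPM across Hnrnpl-null libraries. The lowest value, in Hnrnpl-null replicate 3, rests on 4 counts. The fitted level was 41.8% of WT (25.4% to 68.9%) with an edgeR adjusted p of 0.050, just above the threshold. Without Hnrnpl-null replicate 3 it was called, with a log2 fold change of -1.07 and an adjusted p of 0.037, but leaving out any other single library gave an adjusted p of 0.056 to 0.18, and the replicate block gave 0.086. Of the 19 alternative settings listed below, 10 called Pld6 lower, DESeq2 and limma-voom among them, and 9 did not. Asz1 (chromosome 6, 18050964 to 18109061, minus strand) encodes GASZ, an ankyrin-repeat scaffold of the germ granule at mitochondria. Asz1 measured 8.69, 5.85 and 8.13 CPM across WT libraries against 5.23, 4.34 and 6.87 CPM across Hnrnpl-null libraries. The groups overlapped, and the fitted level was 69.9% of WT (45.9% to 107%, edgeR adjusted p = 0.36). The interval holds both no change and a fall as large as that of Gpat2.

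**Figure D2:**
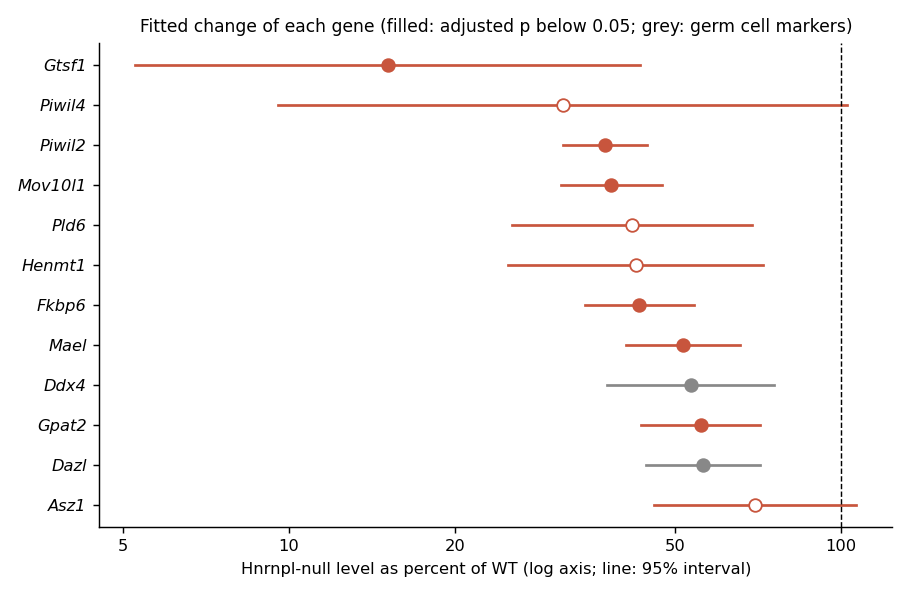
Fitted level in Hnrnpl-null as percent of WT (log axis) for the 10 genes (red) and the germ cell markers Ddx4 and Dazl (grey), with 95% intervals from the edgeR fit and filled points for an adjusted p below 0.05. Piwil2 (37.4%) and Mov10l1 (38.4%) have narrow intervals, while Gtsf1 (15.1%) and Piwil4 (31.3%) have wide ones.

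Mael, Gtsf1 and Henmt1 act in germ granules, as partners of PIWI proteins, or on the finished piRNA. Mael (chromosome 1, 166201385 to 166238744, minus strand) encodes Maelstrom, a germ granule protein needed for transposon silencing that also limits LINE-1 in fetal mouse oocytes. Mael measured 29.2, 33.7 and 32.9 CPM across WT libraries against 14.0, 16.9 and 20 CPM across Hnrnpl-null libraries. Hnrnpl-null replicate 3 was the highest of its group and still below every WT library. Mael fell to 51.6% of WT (40.7% to 65.6%), or -0.95 ± 0.16 on the log2 scale (edgeR adjusted p = 0.0040).

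Gtsf1 (chromosome 15, 103402459 to 103430427, minus strand) encodes a small zinc-finger partner of PIWI proteins. It had 18, 33 and 42 counts in the WT libraries and 8, 6 and 2 counts in the Hnrnpl-null libraries, which gave 2.37, 1.37 and 2.89 CPM against 0.337, 0.228 and 0.625 CPM. It is the only gene of the 10 with fewer than 10 counts in every Hnrnpl-null library, so its size of change rests on very few read pairs. It was tested only because its WT counts passed the filter, and a gene admitted by the group where it is high had to differ. The fitted level of Gtsf1 was 15.1% of WT with an interval of 5.28% to 43.2%, or -2.73 ± 0.70 on the log2 scale (edgeR adjusted p = 0.045). The call was lost without WT replicate 1, 2 or 3 (adjusted p = 0.13, 0.10 and 0.21) and without Hnrnpl-null replicate 1 or 2 (adjusted p = 0.14 and 0.20), where the log2 fold change was -2.98 to -2.40. It was also lost with the replicate number as a block (adjusted p = 0.11). Henmt1 (chromosome 3, 108940084 to 108960776, plus strand) encodes the methyltransferase that protects the ends of finished piRNAs. Henmt1 measured 5.27, 5.56 and 5.10 CPM across WT libraries against 2.45, 1.68 and 3.12 CPM across Hnrnpl-null libraries. The groups did not overlap, and the fitted level was 42.4% of WT (24.9% to 72.2%), but the gene was not called (edgeR adjusted p = 0.071). Without Hnrnpl-null replicate 3 it was called, with a log2 fold change of -1.36 and an adjusted p of 0.030, but leaving out any other single library gave an adjusted p of 0.14 to 0.26, and the replicate block gave 0.13. Of the 19 alternative settings, 7 called Henmt1 lower, DESeq2 and limma-voom among them, and 12 did not.

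Per length, the order of the 10 genes by level was similar in both groups. In WT, Mov10l1 was highest at 24.8 ± 1.95 RPKM (SD, n = 3), followed by Mael at 20.7 ± 1.55, Fkbp6 at 16.9 ± 1.30, Gpat2 at 15.8 ± 2.06 and Piwil2 at 13.6 ± 0.407 RPKM. Asz1, Pld6, Gtsf1 and Henmt1 followed at 4.34, 3.87, 3.06 and 2.49 RPKM, and Piwil4 was last at 0.391 RPKM. Neighbours in this order whose WT values overlapped were Fkbp6 and Gpat2, Gpat2 and Piwil2, Asz1 and Pld6, Pld6 and Gtsf1, and Gtsf1 and Henmt1. In Hnrnpl-null, Mael (10.97 ± 1.94 RPKM) stood above Mov10l1 (9.39 ± 1.85 RPKM), Gpat2 (8.76 ± 1.72 RPKM) above Fkbp6 (7.17 ± 0.643 RPKM), and Henmt1 above Gtsf1. Mov10l1 exceeded Mael in all WT libraries and in 1 of the 3 Hnrnpl-null libraries, so this exchange of places did not hold in each library. Piwil2 made up 12.5% to 13.3% of the summed RPKM of the 10 genes in WT and 9.54% to 11.8% in Hnrnpl-null.

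The germ cell markers that serve here as a reference fell as well. Dazl, a germ cell RNA-binding protein, was at 56.2% of WT (44.3% to 71.3%) and Ddx4, the germ granule helicase VASA, at 53.4% (37.7% to 75.6%), both called over all genes. Both calls depend on single libraries: leaving out single libraries gave a largest adjusted p of 0.073 for Dazl (called without WT replicates 1 and 2 and Hnrnpl-null replicate 3) and 0.16 for Ddx4 (called without Hnrnpl-null replicates 1 and 3). With the replicate number as a block the Ddx4 call was lost too (adjusted p = 0.057). Each gene's CPM was then divided by the mean CPM of Ddx4 and Dazl in the same library, for the 9 genes with counts in every library. The ratio for Piwil2 was 2.17, 2.26 and 1.86 in WT and 1.47, 1.62 and 1.13 in Hnrnpl-null. The groups did not overlap, with a log2 difference of -0.59. The ratio for Mov10l1 was 2.44, 2.701 and 2.38 in WT and 2.06, 1.87 and 1.24 in Hnrnpl-null, a log2 difference of -0.57, again with no overlap. Fkbp6 (-0.39) and Gtsf1 (-1.69) were lower in all Hnrnpl-null libraries too. Gtsf1 was admitted through its WT libraries and had 8, 6 and 2 counts in the Hnrnpl-null libraries, so its difference is a description and supports nothing. In Fkbp6 the margin was 0.637 against 0.639, and without the 2 libraries richest in Rn45s its difference was -0.15. For these 4 genes an exact two-sided permutation test gave p = 0.10, the smallest value that 3 against 3 libraries allow, and an adjusted p of 0.23 over the 9 genes, so none passed. Mael, Asz1, Pld6, Gpat2 and Henmt1 had ratios that overlapped between the groups, with log2 differences of -0.08, 0.38, -0.73, -0.02 and -0.33 (exact p of 0.20 to 1.0). Without Hnrnpl-null replicate 3, that of Pld6 was -0.14.

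**Figure D3:**
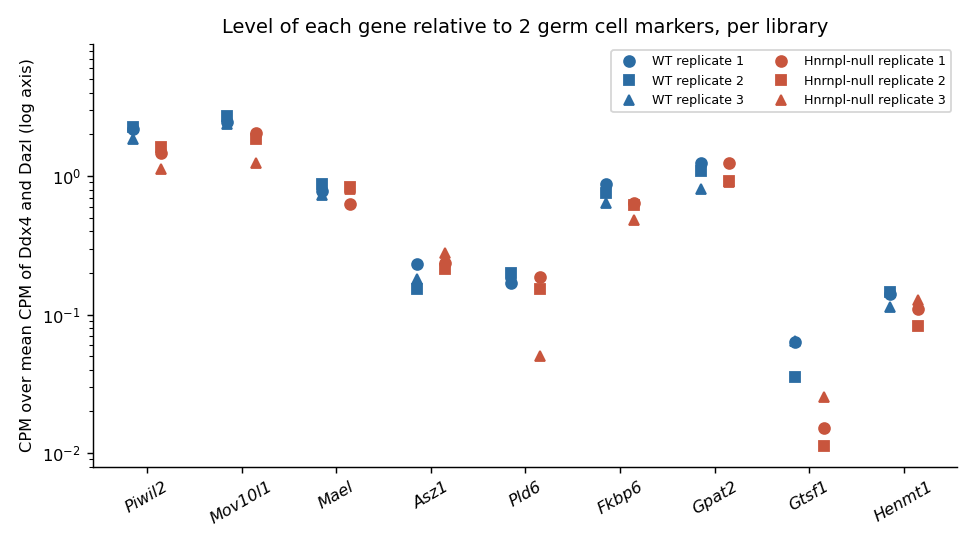
CPM of 9 genes divided by the mean CPM of Ddx4 and Dazl in the same library (log axis), with WT in blue, Hnrnpl-null in red and 1 symbol per replicate. Piwil2, Mov10l1, Fkbp6 and Gtsf1 are lower in all 3 Hnrnpl-null libraries, and the groups overlap for the other 5. Gtsf1, admitted through its WT counts, is shown as a description only. Heights are to be compared within a gene, since CPM is not per length.

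The choice of reference set the size of these differences. Against the mean of all 10 germ cell markers listed, which include Ddx4 and Dazl themselves and also Nobox, Ybx2, Sycp3 and Figla with larger falls, the log2 difference was -0.19 for Piwil2, -0.17 for Mov10l1, 0.01 for Fkbp6 and -1.29 for Gtsf1, while that of Mael was 0.32 and that of Gpat2 0.39. The 10 markers had a median log2 fold change of -1.03, with 8 called lower, against -1.25 for the PIWI and processing genes. With 3 against 3 libraries the exact test could not reach 0.05 for any of the 9 genes set against the markers, and it says nothing on whether they fell by more or less than these.

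Markers of other cell types were read in the same libraries. Of all 14849 genes tested, 2746 had an unadjusted p below 0.05, the background for the counts of such genes in each list. The pregranulosa markers had 0 of 11 genes called by edgeR (2 with an unadjusted p below 0.05). They summed to 736 to 839 CPM in Hnrnpl-null, against 823 to 880 CPM in WT. The ranges overlap only through Hnrnpl-null replicate 3 (839 CPM), a library dominated by Rn45s, and the other Hnrnpl-null libraries lay below the WT range. The leukocyte markers summed to 55.9 to 62.2 CPM in WT and 612 to 757 CPM in Hnrnpl-null, with 6 of 11 called higher. Mpo, the myeloperoxidase of myeloid granules, was the most abundant of them in Hnrnpl-null at 451 ± 63.9 CPM. Mpo, Elane and Prtn3 averaged 0.437, 0.603 and 0.843 CPM in WT. They passed the filter on low counts only through their Hnrnpl-null libraries, so their calls are descriptions and support nothing. Tyrobp, Fcer1g, Csf1r, C1qa and Adgre1 were not called, and C1qa had a negative log2 fold change (-0.25). The stroma and endothelium markers summed to 3158 to 3406 CPM in WT and 4787 to 5215 CPM in Hnrnpl-null, most of it from the collagen gene Col1a1. Of these 10 markers 2 were called higher, Col1a1 and Dcn, and 7 had an unadjusted p below 0.05. The 7 include 4 with negative log2 fold changes, the endothelial genes Cdh5 (-0.64) and Tie1 (-0.70) and the smooth muscle genes Myh11 (-0.66) and Acta2 (-0.29), none of them called. The endothelial gene Kdr, also among the 7, had a positive log2 fold change (0.35) and was not called either. Pecam1, likewise endothelial (-0.23), was not among the 7. The erythroid markers summed to 20.7 to 35.5 and 28.7 to 72.6 CPM, with 0 of 3 tested called (2 with an unadjusted p below 0.05) and 4 globin genes listed at 0. The part of these cells in the levels above was not tested.

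Of the other genes of the piRNA pathway, those called were all lower. Of 23 listed, 22 are in the table, 21 were tested, 10 were lower and 0 higher by edgeR, and the 13 with an unadjusted p below 0.05 all had negative fold changes, with a list median log2 fold change of -0.90. Ddx4 is one of the 10 called and also one of the germ cell markers, and its own log2 fold change is this median, so the lists are not separate. The 4 with the smallest p were Tdrd1, a Tudor scaffold that binds PIWI proteins, at 22.6% of WT, Tdrd9, a helicase with a Tudor domain, at 42.3%, Tex15, which acts with Piwil4 in male germ cells, at 40.4%, and Tdrd5, a Tudor protein of germ granules, at 43.1% of WT (edgeR adjusted p of 0.0021 or less for each). One of the 10, Kif17, a kinesin motor gene, took its fall from 1 library, at 4433 CPM in WT replicate 1 against 2.98 and 3.17 CPM in WT replicates 2 and 3. The lower calls were 6 without WT replicate 3 and 5 without Hnrnpl-null replicate 2. Prmt5, Wdr77 and Hsp90aa1, general factors that modify or load PIWI proteins and are used by all cells, were not called, with log2 fold changes of 0.28, 0.13 and 0.09. Piwil1, the PIWI protein of later male germ cells, was not called, with 2.01 ± 0.807 CPM among WT libraries and 1.34 ± 1.01 CPM among Hnrnpl-null libraries. Dnmt3l was listed at 0 in all 6 libraries.

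Among broadly expressed relatives of the 10 genes, none of the 14 listed was called lower. In 5 of them the fitted log2 fold change was negative, and in 3, Mov10, Ago4 and Gpam, all Hnrnpl-null libraries lay below all WT libraries, while 2, Ago2 and Fkbp8, had the opposite order. The list includes the Argonautes, Mov10, Gpam and Fkbp4, and their median log2 fold change was 0.05. By edgeR 1 of them was called, and the same 1 had an unadjusted p below 0.05. This was Ago2, an Argonaute that cuts targets of small RNAs, which rose from 83.3 ± 3.39 to 112 ± 7.67 CPM (log2 fold change 0.43 ± 0.11, edgeR adjusted p = 0.036). Each fit that left out a single library lost this call, apart from the fit without Hnrnpl-null replicate 3, with an adjusted p of up to 0.16. Mov10, the relative of Mov10l1, went from 66.3 ± 7.08 to 58.1 ± 2.30 CPM and was not called (edgeR adjusted p = 0.43). Gpam, the relative of Gpat2, went from 65.5 ± 1.97 to 59.4 ± 7.09 CPM and was not called (edgeR adjusted p = 0.62). In the miRNA pathway, Ago2 was again the single call among 13 genes. Dicer1 and Drosha had log2 fold changes of -0.27 and -0.23 without being called. The median of the 13 was -0.16. An unadjusted p below 0.05 was found for 3 of them, Tnrc6a and Dicer1 (lower) and Ago2 (higher). All Hnrnpl-null libraries lay below all WT libraries for 5 of the 13, against 13.2% of all tested genes. The opposite order was found for 1 of the 13, against 12.4% of all tested genes.

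**Figure D4:**
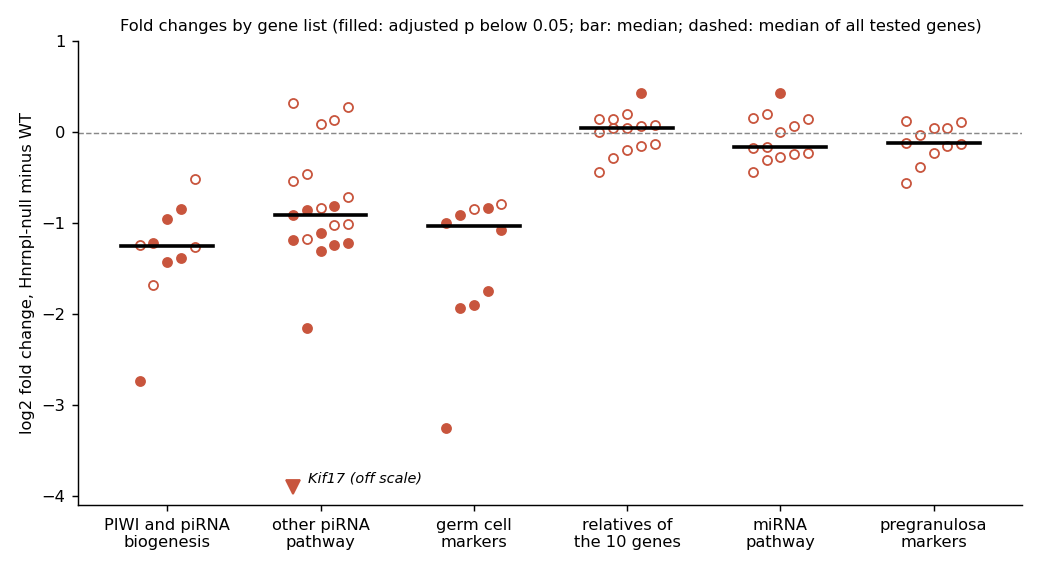
Log2 fold change (Hnrnpl-null minus WT) of each tested gene in 6 lists, with filled points for an edgeR adjusted p below 0.05, a bar for the median of each list and a dashed line for the median of all tested genes (-0.01). The PIWI and processing genes (median -1.25), the other piRNA genes (-0.90) and the germ cell markers (-1.03) lie below the relatives (0.05), the miRNA pathway (-0.16) and the pregranulosa markers (-0.12). Kif17, at -9.59, is drawn at the lower edge, and Ddx4 stands both among the other piRNA genes and among the germ cell markers.

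The genes whose pattern over the 6 libraries was closest to that of Piwil2 were sought among 7712 other tested genes with a mean of at least 10 CPM, by the root mean square difference of centred log2 CPM. The 5 closest were Ttn (0.099), Uchl1 (0.12), Gm4969 (0.12), Alg13 (0.14) and Ndrg4 (0.15). Ttn went from 30.9 ± 2.33 to 11.6 ± 0.509 CPM and Alg13 from 122 ± 16.8 to 44.8 ± 5.23 CPM. Among the 10 genes themselves, Mov10l1 at 0.12 and Fkbp6 at 0.14 had 3 and 4 of the 7712 genes closer to Piwil2, so both stood nearer to it than Ndrg4. Mael, Henmt1 and Gpat2 had 64, 70 and 76 genes closer, and Pld6 had 165. Asz1 had 995 genes closer, Gtsf1 1542 and Piwil4 5639. Likeness here is over libraries that share the 2 groups, and counting error adds to the distance of genes with few counts such as Gtsf1 and Piwil4.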

How the data were processed

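The deposited file is a single table of raw counts per gene, laid out like featureCounts output per the file headers, which also give exon coordinates and exonic length. The submitters' processing notes list STAR 2.7.11a, HISAT2 2.2.1, featureCounts 2.0.6 and mm10 without saying what each did. Annotation, strand setting and handling of reads with several matches were not given in the sources used here. No other gene of the table has exons that overlap those of the 10 genes.

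The main test was the quasi-likelihood test of edgeR 4.0.16 (R 4.3.3), two-sided, on all 6 libraries with genotype as the only term, after filterByExpr and TMM scaling, with Benjamini-Hochberg adjustment over the 14849 genes kept. The test was tried on counts simulated with the dispersions it had fitted, a check of its running that supports none of the calls. Gtsf1 passed the filter through its WT counts. CPM used the TMM-scaled library size, and RPKM divided it by the deposited exonic length. Standard errors came from the F statistic. Limits on counts of 0 cover counting error only. Promoter sequences are from RefSeq (GRCm38.p6). Alternatives were DESeq2 1.42.0, limma 3.58.1 (voom), other scalings, filters and thresholds, halved counts, robust dispersions, Rn45s left out, libraries left out, and the replicate number as a block. The genes and lists were chosen with earlier results of these data known. Named genes are the 10, up to 4 called genes of smallest p per list, and the 5 most like Piwil2, with Ddx4, Dazl and Hnrnpl as reference. Other genes were named after their values were seen. Splicing and Spocd1, a gene of the pathway list, were not analysed here.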

Additional observations from a re-analysis of the deposited data

How the results depend on the processing

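The fitted log2 fold change was negative for each of the 10 genes in every alternative that tested it, and 0 were called higher in any. The 6 lower calls became 8 with DESeq2, limma-voom, no filter, robust dispersions or without the 2 libraries richest in Rn45s, 7 with RLE or upper quartile factors, the Rn45s row left out or halved counts (8 genes tested), 5 with at least 20 counts in 3 libraries (8 tested) and 4 at an adjusted p below 0.01. Leaving out 1 library gave 4 to 8. With library totals alone, where Rn45s sets the scale, 0 were called, as were 1 lower and 3 higher of all genes, 1 of the other piRNA genes, and 0 relatives or miRNA genes. The other piRNA genes called lower were 5 at an adjusted p below 0.01 and 5 to 10 without 1 library. The 1 call among relatives and among miRNA genes, Ago2, was 0 at an adjusted p below 0.01 and 0 to 1 without 1 library. Over all genes, 266 lower and 397 higher calls became 445 and 646 with DESeq2, 498 and 775 with limma-voom, 471 and 633 with no filter, and 89 and 147 at an adjusted p below 0.01. Without 1 library they were 104 to 321 and 145 to 532. The median log2 difference of the 9 genes relative to Ddx4 and Dazl was -0.39, and 0.015 against all 10 germ cell markers. Leaving out 1 library gave -0.51 to -0.26. The labels do not say whether the replicate numbers pair the samples. Deviations of same-numbered libraries correlated at -0.12, 0.09 and -0.09, and those of differently numbered libraries at -0.11 to 0.15. With 3 libraries per group these values cannot decide it. With the replicate number as a block, 5 of the 10 genes and 7 of the other piRNA genes were called lower and 0 relatives and 0 miRNA genes were called. For these changes the cause was not tested. Depth limits Piwil4 and Gtsf1 most.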
